A study of Homo sapiens with 12 samples.

Results

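Recovery of tRNAs by an antibody against N1-methyladenosine (m1A) was measured in DLD1 cells, a human colorectal cancer line, by setting the share of each tRNA among the antibody-bound reads (IP) against its share among the unselected reads (Input) of the same culture. The table of m1A sites listed 44 adenosines in 29 tRNAs of 12 isotypes, an isotype being the tRNAs that carry 1 amino acid, with initiator methionine tRNA (iMet) kept apart. A name such as Gln-CTG-4-1 gives the amino acid, the anticodon and the number of the isoform. Each tRNA was represented by 1 of its listed adenosines, the one with the most Input reads, and the 8 IP and Input libraries among the 12 libraries of the series were used. The 2 conditions were OE-WT, cells with lentiviral overexpression of wild-type TRMT6 and TRMT61A, and CTRL, cells that carried the empty vector, with 2 cultures each. Both were stable lines of a single cancer cell line, and the sources used here do not say whether they were clones. No library of the catalytically inactive enzyme was among these samples. The table holds tRNAs only, so neither the level of TRMT6 and TRMT61A nor a marker of the cell line could be checked in it.

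TRMT6 and TRMT61A form the methyltransferase that places m1A on the adenosine at position 58 (A58) of the T loop of cytoplasmic tRNAs, where the modified base takes part in the tertiary fold that holds the elbow of the tRNA together. The modification is best known on initiator methionine tRNA, which loses stability without it. A methyl group at N1 blocks Watson-Crick pairing, so reverse transcriptase stops or misreads there. An antibody against m1A enriches the RNA fragments that carry the mark, and the fraction bound relative to Input is a measure of capture computed without the misread bases. The set of sites was not free of them here, since every listed adenosine had a misread IP read.

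IP libraries were shallow. Over the 29 tRNAs they held 37 and 93 reads in OE-WT cultures and 65 and 88 reads in CTRL cultures, 283 in all. The matching Input libraries held 26464 and 22294 reads in OE-WT and 12438 and 24840 reads in CTRL, 86036 in all. Listed IP reads came to between 0.140% and 0.523% of the listed Input reads of the same culture. Of the 29 tRNAs, 11 had fewer than 3 IP reads over the 4 cultures and 11 had IP reads in 1 culture only. Each of the 44 listed adenosines had at least 1 misread IP read, and the rule by which sites were listed is not given in the sources used here. A single IP read is 0.353% of the summed IP reads, so for 19 of the 29 tRNAs 1 read alone puts the IP share above the Input share. Of the 14 tRNAs called higher in IP below, 12 belong to these 19.

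The sequences of the tRNAs on which the comparisons turn are shown 5′ to 3′ without the added CCA tail, as DNA letters from the deposited table, with the T loop (positions 54 to 60 of the standard numbering) in capitals. A58 is the fifth capital letter. Gln and Val are shown because they made up most of the IP reads, Asp and Glu because they made up most of the Input reads, and iMet because it is the classical A58 substrate.
tRNA-Gln-CTG-4-1: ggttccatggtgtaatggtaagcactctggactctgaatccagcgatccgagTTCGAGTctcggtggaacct
tRNA-Gln-CTG-5-1: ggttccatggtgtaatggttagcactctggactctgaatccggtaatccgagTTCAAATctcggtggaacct
tRNA-Gln-TTG-3-3: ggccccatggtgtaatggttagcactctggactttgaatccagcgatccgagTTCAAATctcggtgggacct
tRNA-Gln-TTG-1-1: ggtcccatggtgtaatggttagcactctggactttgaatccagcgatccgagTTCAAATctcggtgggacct
tRNA-Val-CAC-3-1: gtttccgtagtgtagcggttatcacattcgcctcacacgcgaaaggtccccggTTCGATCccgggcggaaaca
tRNA-Val-CAC-1-7: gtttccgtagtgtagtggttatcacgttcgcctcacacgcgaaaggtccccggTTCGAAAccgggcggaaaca
tRNA-Asp-GTC-2-5: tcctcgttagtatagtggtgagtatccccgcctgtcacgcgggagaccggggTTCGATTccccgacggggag
tRNA-Asp-GTC-3-1: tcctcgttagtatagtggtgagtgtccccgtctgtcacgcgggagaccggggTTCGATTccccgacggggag
tRNA-Glu-TTC-2-1: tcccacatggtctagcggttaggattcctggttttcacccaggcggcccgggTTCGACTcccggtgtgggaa
tRNA-iMet-CAT-1-1: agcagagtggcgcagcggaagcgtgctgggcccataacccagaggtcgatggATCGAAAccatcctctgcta

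The 6 glutamine tRNAs were close relatives. Gln-TTG-1-1 and Gln-TTG-3-3 differed at 1 base (T3C, counted from the 5′ end), and Gln-CTG-1-4 differed from Gln-CTG-5-1 at 3 bases (A42G, C44T and G45A). Asp-GTC-2-5 and Asp-GTC-3-1 differed by A24G and C31T, Val-AAC-1-1 and Val-CAC-1-7 by A34C in the anticodon, and Arg-ACG-1-3 and Arg-ACG-2-1 by C50T. Isoforms of identical score were merged in the alignment, so an entry can stand for several genes, and reads that do not cover a differing base cannot be told apart between such entries. All 29 listed sequences matched hg38 at the listed coordinates. Gln-CTG-4-1 lies at chr1:148265108-148265179 on the minus strand (RefSeq TRQ-CTG4-1) and overlapped no GENCODE v44 gene. Gln-CTG-5-1 lies at chr6:27295433-27295504 on the plus strand, inside an intron of POM121L2, which runs on the other strand. Val-CAC-3-1 lies at chr19:4724635-4724707 on the minus strand and overlapped an exon of DPP9. Asp-GTC-2-5 lies at chr1:161470415-161470486 and Asp-GTC-3-1 at chr6:27583457-27583528, both on the minus strand.

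At the level of isotypes, listed IP reads were dominated by tRNA-Gln and tRNA-Val, and listed Input reads by tRNA-Asp and tRNA-Glu. Each isotype was summed over its listed tRNAs only, all of which had a misread IP read. The shares, ratios and tests of isotypes therefore do not cover unlisted tRNAs and are not free of the listing. tRNA-Gln, which reads the CAG and CAA codons, made up 35.1% and 32.3% of IP reads in OE-WT and 41.5% and 45.5% in CTRL, against 0.223% and 0.256% of Input reads in OE-WT and 0.587% and 0.270% in CTRL. Every IP library lay far above every Input library. With reads summed over the 4 cultures, Gln took 38.9% of IP reads (95% exact Clopper-Pearson interval 33.2% to 44.8%) and 0.298% of Input reads (0.262% to 0.336%), a ratio of 131 (95% counting interval 104 to 164). The log2 ratio averaged 6.96 ± 0.57 (SD, n = 4 cultures). tRNA-Asp went the other way, with 29.7% and 11.8% of IP reads in OE-WT and 13.8% and 12.5% in CTRL, against 88.2% and 87.5% of Input reads in OE-WT and 84.1% and 87.8% in CTRL. Its summed share was 5.88-fold lower in IP (4.35 to 8.16), and the log2 ratio averaged -2.47 ± 0.61 (SD, n = 4 cultures). All intervals given cover counting error only and leave out the spread between cultures. They treat each read as a separate molecule, so copies of 1 molecule made by amplification would make them too narrow.

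tRNA-Val had 24.3% and 33.3% of IP reads in OE-WT and 16.9% and 11.4% in CTRL, against between 1.11% and 1.61% of the reads in the 4 Input libraries. The summed ratio was 15.6 (11.9 to 20.2), and the groups did not overlap. tRNA-Arg had no IP read in OE-WT replicate 1 and 7.53%, 12.3% and 5.68% of IP reads in the other cultures, against 0.0718% to 0.273% of Input reads. tRNA-Tyr had 9 IP reads against 20 Input reads over the 4 cultures, a ratio of 137 (54.9 to 314) that was 224 without OE-WT replicate 2. tRNA-Glu had 1 IP read in each of the 4 cultures, against 2168, 1889, 1236 and 2244 Input reads, and was 6.20-fold lower in IP (2.42 to 22.8). With each tRNA counted at its adenosine with the most IP reads, Glu was instead 3.73-fold higher in IP by summed shares, without a call (edgeR log2 0.83, adjusted p = 0.312). tRNA-Gly had 2.70% and 2.15% of IP reads in OE-WT and 6.15% and 5.68% in CTRL, against 0.612% to 1.46% of Input reads, a ratio of 4.74 (2.44 to 8.34).

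By edgeR's quasi-likelihood test with culture as a block, 6 of 12 isotypes were higher in IP (50%) and 2 were lower (16.7%) at an adjusted p under 0.05, 66.7% in all. The higher ones were Gln (adjusted p = 8.39e-20), Val (1.68e-11), Arg (7.32e-06), Tyr (0.000158), iMet (0.0202) and Gly (0.0302), and the lower ones were Asp (5.75e-10) and Glu (0.000443, a call that rests on the adenosine counted). Without CTRL replicate 1 or CTRL replicate 2 the calls of iMet (edgeR adjusted p = 0.190 and 0.138) and Gly (0.149 and 0.0900) were lost. Ile, Leu, Lys and Ala, with between 1 and 6 IP reads each, did not pass. For the 5 isotypes with reads in all 8 libraries (Gln, Val and Gly above Input in every library, 25.0% of isotypes, and Asp and Glu below, 16.7%), the exact two-sided sign-flip permutation test over the 4 cultures gave p = 0.12, which is the smallest value it can give.

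**Figure D1:**
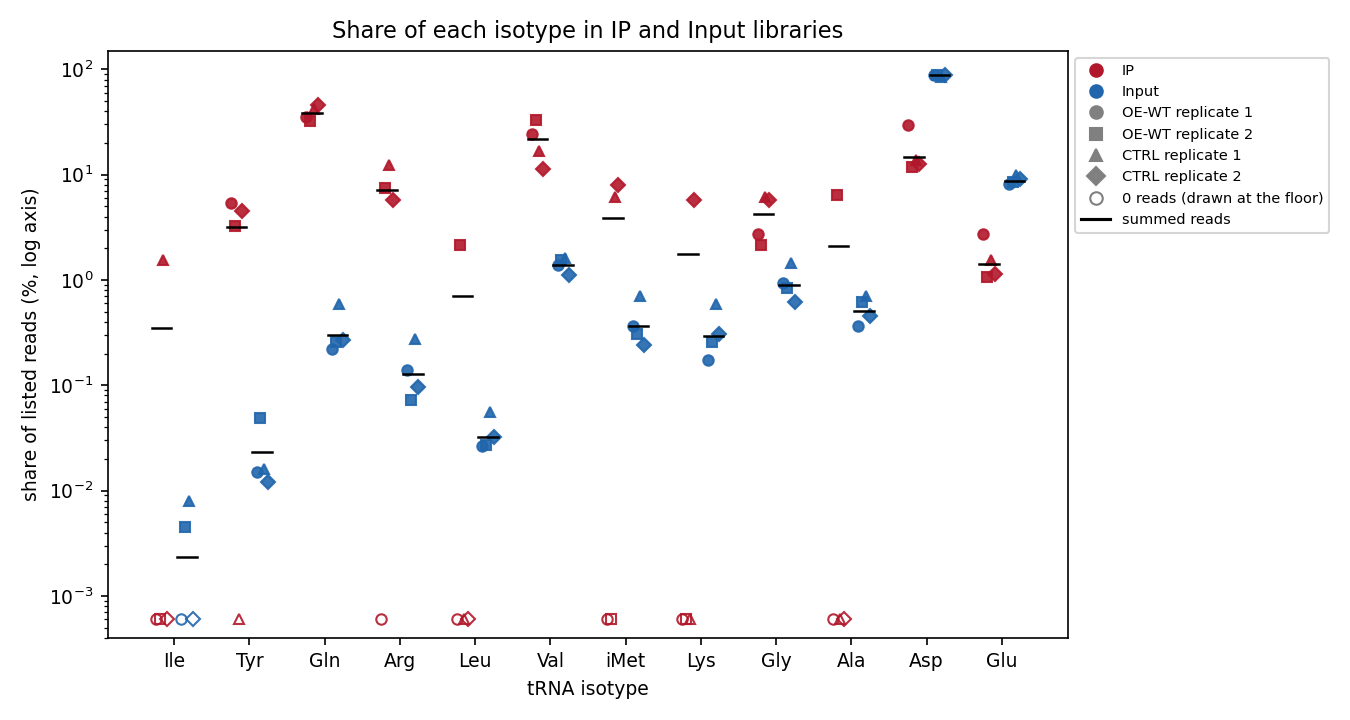
Share of listed reads (%, log axis) of the 12 isotypes in the 4 IP libraries (red) and the 4 Input libraries (blue), with 1 symbol per culture, open symbols at the floor for 0 reads and a bar for the summed reads. Gln lies between 32.3% and 45.5% in IP and between 0.223% and 0.587% in Input, while Asp lies between 11.8% and 29.7% in IP and between 84.1% and 88.2% in Input.

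These are shares, so they describe the make-up of the captured RNA and not the amount captured. tRNA-Asp held 87.3% of Input reads, and a lower share of it in IP leaves a larger share for all other tRNAs. The median log2 change over the 29 tRNAs was 3.81 on the scale of shares, -0.02 with TMM factors and -0.40 with DESeq2 size factors, 2 scalings that set the middle of the tRNAs near equality. For isotypes the scalings were fitted to the 12 isotypes, whose median log2 change was 3.43 on shares, -1.18 with TMM and -0.68 with DESeq2. With both, Gln was still called higher and Asp and Glu lower. Val (log2 -0.78 with TMM, -0.16 with DESeq2) and iMet (-1.58 and -1.20) fell below 0, though Val stayed above the median of the isotypes. Gly (-2.46 and -1.91) was called lower with both, as were Ala and Lys. Arg lost its call with both, and Tyr with TMM factors only.

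Among single tRNAs, 14 of 29 were higher in IP (48.3%), 3 were lower (10.3%), and 12 did not pass, so 17 tRNAs were called (58.6%) and 82.4% of the calls were higher. With TMM factors 30.0% of 10 calls were higher, and with DESeq2 23.1% of 13. The 6 tRNAs called in the same direction by edgeR on shares, with TMM factors and by DESeq2 were Gln-CTG-4-1, Gln-CTG-5-1 and Gln-TTG-2-1, all higher, and Asp-GTC-2-5, Asp-GTC-3-1 and Glu-TTC-2-1, all lower. With 1 IP read taken from each tRNA, an alternative chosen after the data were seen, 15 of the 17 calls remained. Every listed tRNA had a misread IP read, so this alternative cannot undo the listing or show what unlisted tRNAs would give. The IP shares of 5 tRNAs lay above the Input shares in every library without overlap (17.2%), and those of 4 lay below (13.8%).

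**Figure D2:**
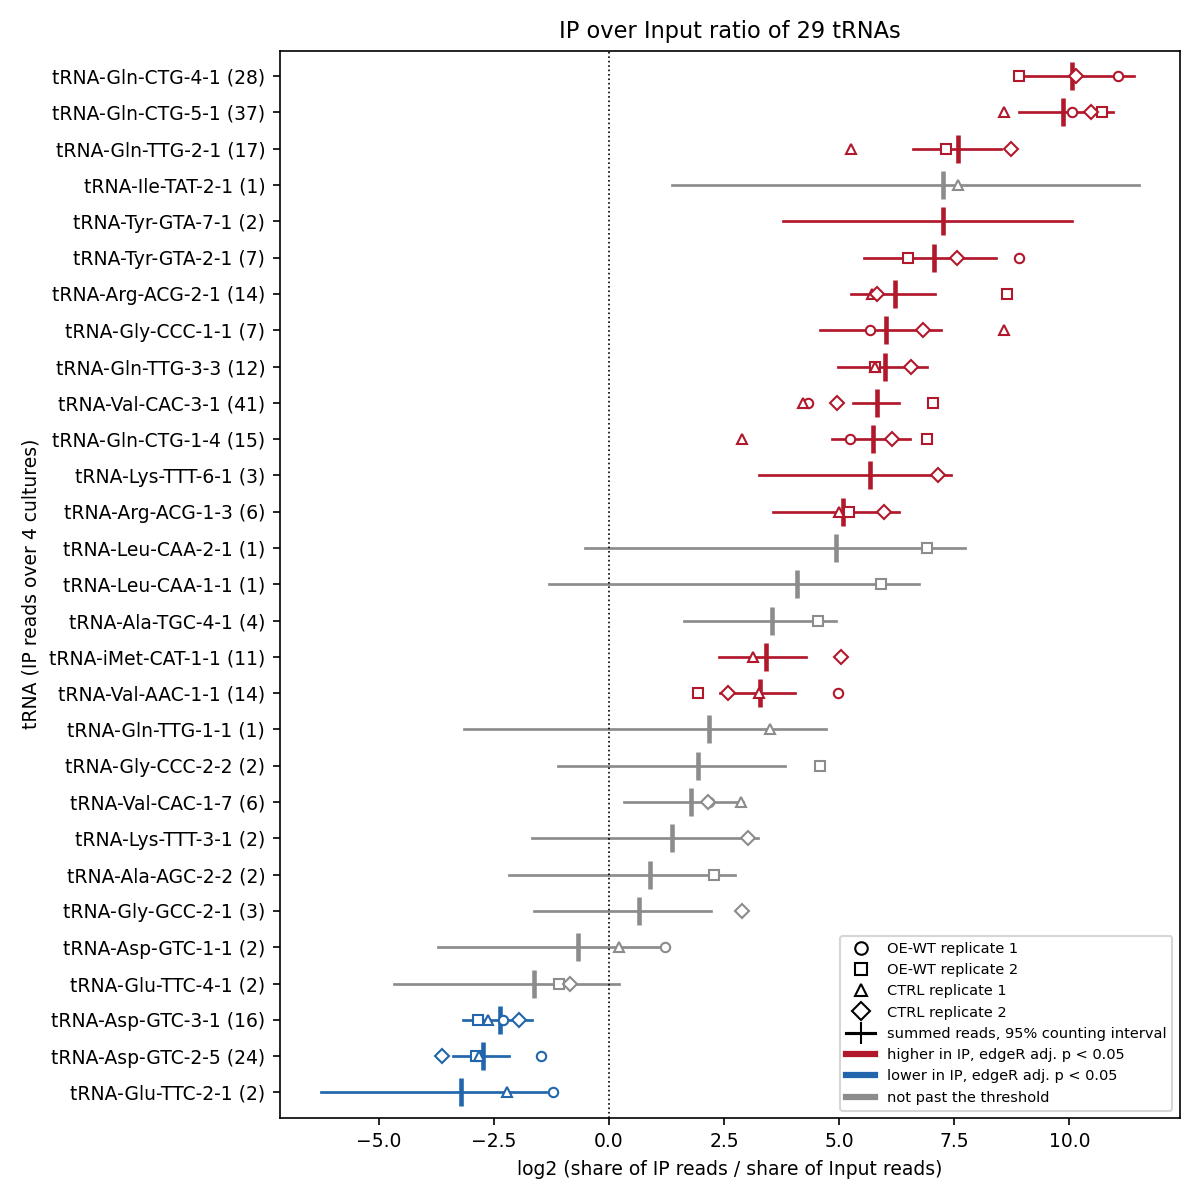
IP over Input ratio of the 29 tRNAs (log2 scale of shares, 0 meaning equal shares), with the number of IP reads after each name, 1 symbol per culture with reads in both libraries, and a tick with its 95% counting interval for the summed reads. Colours give the edgeR call on shares (14 higher, 3 lower, 12 not past the threshold), and the ratios run from 1064 for Gln-CTG-4-1 to 0.107 for Glu-TTC-2-1.

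Glutamine tRNAs headed the order of recovery, and 5 of the 6 were called higher. Gln-CTG-4-1 had 9 and 8 IP reads in OE-WT and 7 and 4 in CTRL, against 3 and 4 Input reads in OE-WT and 0 and 1 in CTRL. It was thus read more often in IP than in Input in each culture, although each Input library held far more reads. Its share was 1064-fold higher in IP (472 to 2702), and 1677-fold without OE-WT replicate 2, with an edgeR adjusted p of 3.82e-16. Gln-CTG-5-1 had 3 and 7 IP reads in OE-WT and 12 and 15 in CTRL, against 2 and 1 Input reads in OE-WT and 6 and 3 in CTRL. The ratio was 937 (478 to 1974), or 1407 without CTRL replicate 1, and the log2 ratio averaged 9.96 ± 0.95 (SD, n = 4 cultures; edgeR adjusted p = 4.85e-17). By 1 IP read alone these 2 tRNAs would have had ratios of 38.0 and 25.3. Gln-TTG-2-1 followed with 0 and 6 IP reads in OE-WT and 2 and 9 in CTRL, against 27 Input reads in all, a ratio of 191 (97.9 to 364) that was 298 without CTRL replicate 1 and 120 without CTRL replicate 2.

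The remaining glutamine tRNAs were less strongly recovered. Gln-TTG-3-3 had a ratio of 64.0 (31.3 to 121) from 12 IP reads, and Gln-CTG-1-4 one of 53.6 (28.8 to 93.5) from 15. Both kept a higher log2 value with TMM factors and DESeq2 but not the call. Gln-TTG-1-1 had 1 IP read, in CTRL replicate 1, against 67 Input reads, a ratio of 4.54 (0.113 to 26.2) that did not pass (edgeR adjusted p = 0.525). It differs from Gln-TTG-3-3 at 1 base, and the counting intervals of the 2 do not overlap, but they were counted at positions 51 and 57 and the difference between them was not tested over cultures. Gln-CTG tRNAs together made up 28.3% of IP reads and 0.122% of Input reads, a ratio of 232, and Gln-TTG tRNAs made up 10.6% of IP reads and 0.176% of Input reads, a ratio of 60.4.

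Valine tRNAs were the second source of IP reads. Val-CAC-3-1 alone had 2 and 29 IP reads in OE-WT and 4 and 6 in CTRL, against 71, 53, 41 and 55 Input reads in the same cultures. It was the most read tRNA of the IP libraries with 41 reads, and 29 of them came from OE-WT replicate 2. The ratio was 56.7 (39.6 to 79.4; edgeR adjusted p = 3.29e-09) and 24.1 without that culture, and the log2 value was 1.23 with TMM factors and 0.50 with DESeq2, without a call. Val-AAC-1-1 had 6 and 2 IP reads in OE-WT and 4 and 2 in CTRL, with a ratio of 9.74 (5.28 to 16.5; edgeR adjusted p = 0.00118), or 6.46 without OE-WT replicate 1, where its adjusted p was 0.0609. Relative to the middle of the tRNAs it was lower (log2 -0.71 with TMM factors, -1.40 with DESeq2). Val-CAC-1-7, which differs from Val-AAC-1-1 at 1 base, had 6 IP reads against 529 Input reads, a ratio of 3.45 (1.26 to 7.56) that did not pass (edgeR adjusted p = 0.171). Without OE-WT replicate 2 it was 5.53 and called higher (adjusted p = 0.0427), without CTRL replicate 1 it was 2.25, and with DESeq2 it was called lower (log2 -2.94, adjusted p = 0.00601).

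Among the other tRNAs called higher on shares, Arg-ACG-2-1 had 0 and 5 IP reads in OE-WT and 6 and 3 in CTRL, a ratio of 74.7 (38.4 to 136; edgeR adjusted p = 6.91e-06). Tyr-GTA-2-1 had 7 IP reads against 16 Input reads, a ratio of 133 (46.3 to 342). Gly-CCC-1-1, counted at position 3, had 1 and 0 IP reads in OE-WT and 4 and 2 in CTRL, and its ratio of 64.5 (24.1 to 148) was 112 without OE-WT replicate 2 and 32.7 without CTRL replicate 1. None of these 3 kept its call with TMM factors or DESeq2. Arg-ACG-1-3 had 6 IP reads and a ratio of 33.8 (11.9 to 78.4). Tyr-GTA-7-1 and Lys-TTT-6-1 had 2 and 3 IP reads, all from CTRL replicate 2, and lost the call with 1 IP read fewer or without OE-WT replicate 1, OE-WT replicate 2 or CTRL replicate 2.

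Initiator methionine tRNA had IP reads in CTRL only at the adenosine used, position 49 of the listed sequence. It had 0 and 0 IP reads in OE-WT, where a count of 0 allows a summed share of up to 2.31%, and 4 and 7 in CTRL, against 97, 69, 88 and 60 Input reads in the same cultures. The summed ratio was 10.7 (5.26 to 19.3; edgeR adjusted p = 0.0166 on shares) and 4.94 without CTRL replicate 2. The call was lost without either CTRL culture (adjusted p = 0.0932 and 0.435), and the log2 value was -1.04 with TMM factors and -1.87 with DESeq2. At position 62, 5 bases 3′ of A58, OE-WT replicate 2 had 15 IP reads of iMet, so the absence of reads in OE-WT holds for the adenosine counted and not for the tRNA. The edgeR test of the difference between OE-WT and CTRL in the ratio of iMet did not pass (adjusted p = 0.891).

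The tRNAs that dominated Input were the least recovered. Asp-GTC-2-5, the most abundant, had 8 and 7 IP reads in OE-WT and 5 and 4 in CTRL, against 15919 and 12451 Input reads in OE-WT and 6757 and 13877 in CTRL. Its share was 21.6% and 7.53% of IP reads in OE-WT and 7.69% and 4.55% in CTRL, against 54.3% to 60.2% of Input reads, 6.72-fold lower (4.51 to 10.5; edgeR adjusted p = 8.93e-09). Asp-GTC-3-1 had 2 and 4 IP reads in OE-WT and 3 and 7 in CTRL, against 7107, 6870, 3535 and 7647 Input reads, 5.17-fold lower (3.18 to 9.05; edgeR adjusted p = 7.25e-06). In both, each IP share lay below each Input share. The log2 ratios averaged -2.70 ± 0.89 and -2.43 ± 0.39 (SD, n = 4 cultures). At the Input shares, 159 and 84.2 IP reads would have matched, where 24 and 16 were read. With 20 Input reads asked of every library, both were still called lower (edgeR log2 -1.55 and -1.27). With 5 expected IP reads asked, only the 2 of them, Glu-TTC-2-1 and Glu-TTC-4-1 were left. Within these 4 they were at log2 -0.13 and 0.23, without a call, so the lower shares are relative to the rarer tRNAs listed. Asp-GTC-1-1, with 2 IP reads against 963 Input reads, had a ratio of 0.631 (0.0764 to 2.29) and did not pass. The ratio was 0.370 without OE-WT replicate 1, 0.423 without CTRL replicate 1 and 0.938 without CTRL replicate 2, and it was called lower with TMM factors (edgeR adjusted p = 0.000158) and DESeq2 (2.65e-05).

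Glu-TTC-2-1 had 1 and 0 IP reads in OE-WT and 1 and 0 in CTRL, against 1651 and 1377 Input reads in OE-WT and 894 and 1736 in CTRL. The share was 9.31-fold lower in IP (2.57 to 76.9; edgeR adjusted p = 0.00223), with an adjusted p of 0.0533 without CTRL replicate 2. Its ratio of 0.107 was 0.0604 without OE-WT replicate 1 and 0.0709 without CTRL replicate 1. This holds at the adenosine used, position 37. At position 5 of the same tRNA, where 47 IP reads stood against 904 Input reads, the ratio was 15.8 (11.5 to 21.2), and 41 of the 47 reads came from CTRL replicate 2. Glu-TTC-4-1, counted at A58, had 0 and 1 IP reads in OE-WT and 0 and 1 in CTRL, against 1879 Input reads, a ratio of 0.324 (0.0392 to 1.17) that did not pass (edgeR adjusted p = 0.202), although its IP share lay below its Input share in each culture. It was called lower with TMM factors (log2 -5.70, adjusted p = 1.89e-07), DESeq2 (-6.46, 1.60e-08), without tRNA-Asp (-4.46, 0.000807) and with adenosines at positions from 50 (-3.04, 0.00415).

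Of the tRNAs that the study singled out, 6 were listed, namely the 3 Asp-GTC entries, Ala-TGC-4-1 and both Leu-CAA entries. Of these 0 were called higher and 2 lower, beside 48.3% and 10.3% of all 29 tRNAs, and their median log2 ratio was 1.44 against 4.08 over all 29 tRNAs. The study chose this list on these samples for higher m1A methylation in OE-WT than in CTRL. The calls here set IP against Input over both conditions, so the 2 measures differ. tRNA-Glu-CTC, which the study also named, has no entry among the 29. Ala-TGC-4-1 had 4 IP reads, all in OE-WT replicate 2, against 105 Input reads, a ratio of 11.6 (3.10 to 30.5; edgeR adjusted p = 0.140). Leu-CAA-1-1 and Leu-CAA-2-1 had 1 IP read each, also in OE-WT replicate 2, with ratios of 16.9 (0.405 to 107) and 30.4 (0.701 to 214). Ala-TGC-4-1 was called higher without the culture block (edgeR adjusted p = 0.0150), and its log2 value was -0.98 with TMM factors and -2.07 with DESeq2.

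The rarer a tRNA was in Input, the higher its ratio tended to be. The 15 tRNAs with under 100 Input reads had a median log2 ratio of 6.01, with 11 called higher. The 10 with 100 to under 1000 Input reads had a median of 1.87, with 3 called higher, and the 4 with 1000 or more had a median of -2.56, with 3 called lower. Across the 29 tRNAs the log2 ratio and the log2 Input share correlated with Pearson's r = -0.888 and Spearman's rho = -0.888, which is a description, since the Input share is also the denominator of the ratio. The IP share itself was nearly unrelated to the Input share (r = 0.166, rho = 0.0859). The minimum of 1 IP read per listed tRNA moves with this pattern, because it sets a higher least ratio for a rarer tRNA, and its part in the pattern was not tested.

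**Figure D3:**
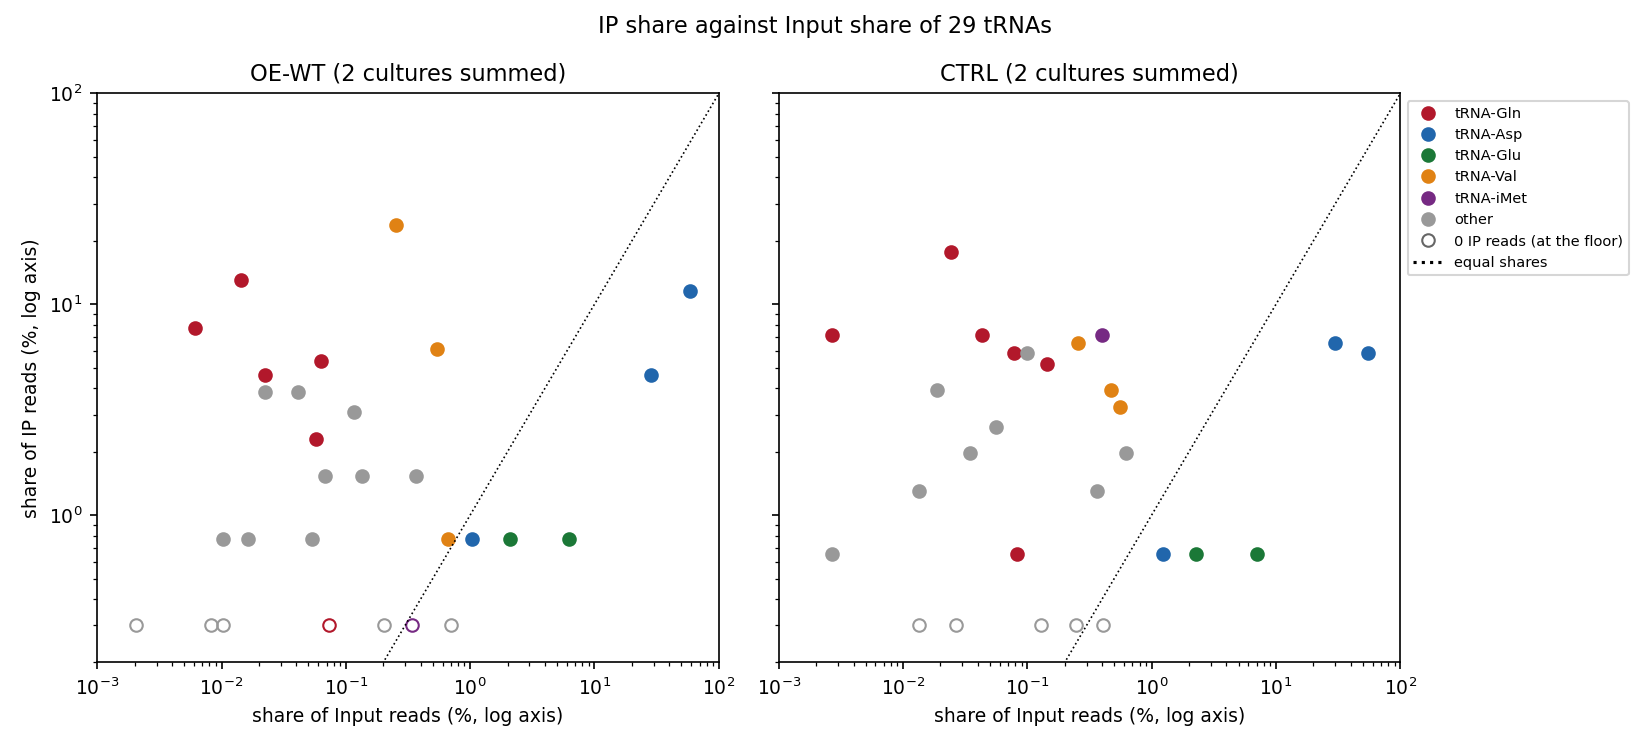
IP share against Input share (%, log axes) of the 29 tRNAs with the 2 cultures of each condition summed, OE-WT left and CTRL right, where open symbols stand for tRNAs with 0 IP reads and the dotted line for equal shares. In both conditions the Gln tRNAs with IP reads lie above the line, Asp-GTC-2-5 and Asp-GTC-3-1 lie below it, and the tRNAs with IP reads have IP shares between 0.654% and 23.8%.

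The question the conditions put is whether overexpression of the methyltransferase altered which tRNAs were captured. By edgeR on shares, 7 tRNAs were higher in IP (24.1%) and 2 lower (6.9%) within OE-WT, 31.0% in all, and 8 were higher (27.6%) and 2 lower (6.9%) within CTRL, 34.5% in all. With TMM factors the counts were 2 higher and 4 lower within OE-WT and 2 higher and 5 lower within CTRL, and with DESeq2 they were 2 higher and 10 lower within OE-WT and 4 higher and 9 lower within CTRL. Gln-CTG-4-1, Gln-CTG-5-1, Gln-TTG-2-1, Val-CAC-3-1 and Arg-ACG-2-1 were higher, and Asp-GTC-2-5 and Asp-GTC-3-1 lower, in both. Leaving out OE-WT replicate 2, CTRL replicate 1 or CTRL replicate 2 left 2, 3 and 4 calls within OE-WT, and leaving out either CTRL culture left 1 call within CTRL, where a single remaining culture took its spread from the other condition. Of the 17 tRNAs with IP reads in both conditions, 17 had a summed ratio on the same side of 1 in OE-WT and in CTRL, but for 12 of them a single IP read in each condition already gives a ratio above 1, so this count shows little about agreement. Among isotypes, Gln and Val were higher (16.7%) and Asp and Glu lower (16.7%) within OE-WT, 33.3% in all. Within CTRL, Gln, Val, Arg, iMet and Gly were higher (41.7%) and Asp and Glu lower (16.7%), 58.3% in all. The edgeR test of the difference between conditions called 0 of 29 tRNAs and 0 of 12 isotypes (0.0% of each), with 0 of either at an unadjusted p under 0.05. DESeq2 also called 0 of each, with 2 tRNAs and 1 isotype at an unadjusted p under 0.05.

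The counting intervals of the main isotypes overlapped between the conditions. The Gln ratio was 139 (95.6 to 199) in OE-WT and 117 (85.8 to 157) in CTRL, and the Asp ratio 0.193 (0.121 to 0.292) in OE-WT and 0.151 (0.0922 to 0.233) in CTRL. The Val ratio was 21.1 (14.97 to 29.1) in OE-WT and 10.7 (6.59 to 16.6) in CTRL, a difference in mean log2 ratio of 0.91 with an exact two-sided permutation p of 0.33, the smallest that 2 cultures against 2 allow. For Val-CAC-3-1 the ratio was 93.8 (61.1 to 140) in OE-WT and 25.4 (11.8 to 48.7) in CTRL, and 29 of its 31 OE-WT reads came from 1 culture. Of the tRNAs listed, 7 had no IP read in OE-WT and 5 had none in CTRL.

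The T loops of the 29 tRNAs fell into 12 sequences. The loop TTCGATT was shared by 6 tRNAs, among them both Asp entries that were lower and Tyr-GTA-2-1, which was higher, and their log2 ratios ran from -2.75 to 7.06. The loop TTCAAAT was shared by 4 glutamine tRNAs, 3 of them called higher, with log2 ratios from 2.18 to 9.87. Base 57, just before A58, was A in 11 tRNAs, of which 6 were called higher and 0 lower (median log2 ratio 5.66). It was G in 18, of which 8 were higher and 3 lower (median 3.75). Over all 29, 48.3% were called higher and 10.3% lower, with a median of 4.08, and no difference between loops or bases was tested. Gln-CTG-4-1 and Gln-CTG-5-1, the best recovered pair, differ at base 57 and have different T loops, TTCGAGT and TTCAAAT.

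The median log2 ratio differed between the parts of the tRNA in which the adenosine was counted, which was not tested. Over the 29 tRNAs the log2 ratio was only weakly related to the distance from A58 (r = 0.196, rho = 0.293, a description). The 4 tRNAs counted before position 20 had 2 calls higher, the 6 counted at positions 20 to 49 had 1 higher and 3 lower, and the 19 counted at position 50 or above had 11 higher and 0 lower, with median log2 ratios of 3.80, -1.52 and 5.08, beside 48.3% higher and 10.3% lower over all 29. The middle group held the 3 Asp entries and Glu-TTC-2-1, so position and isotype cannot be told apart there. The 3 groups also differed in Input reads, with 443, 81100 and 4493 in the same order, and position was not separated from Input depth. The 8 tRNAs with A58 itself among their listed adenosines had 4 calls higher and 1 lower, and the 5 entries longer than 80 nt, which include introns and long variable arms, had 2 higher and 0 lower.

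Of the 29 tRNAs, 9 had several listed adenosines, which share reads and were not tested. In Asp-GTC-3-1 the 5 adenosines from position 37 to 65 gave ratios of 0.181 to 0.213, with 15 or 16 IP reads against 21395 to 25159 Input reads. In Asp-GTC-2-5 the ratio was 0.0333 at position 9, 0.0721 at position 14, 0.102 at position 24 and 0.149 at position 37, with 1, 4, 8 and 24 IP reads, the 1 read being from CTRL replicate 2. Both tRNAs stayed below equal shares at each listed adenosine. iMet gave 10.7 at position 49, 23.2 at A58 and 79.3 (53.4 to 115) at position 62, where 0 and 15 IP reads in OE-WT and 7 and 14 in CTRL stood against 138 Input reads. Gln-TTG-3-3 gave 64.0 at A58 and 367 (207 to 659) at position 69, with 29 IP reads against 24 Input reads.

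The 5′ end showed the opposite order in 2 tRNAs. Gly-GCC-2-1 had 13 IP reads against 67 Input reads at position 3, a ratio of 59.0 (29.9 to 108), and 3 IP reads against 578 Input reads at A58, a ratio of 1.58 (0.324 to 4.63), so the first was 37.4 times the second. All 3 reads at A58 came from CTRL replicate 2, without which no factor can be given. In Glu-TTC-2-1 the ratio at position 5 was 147 times that at position 37, and 17.8 times without CTRL replicate 2, where the ratio at position 5 was 2.84. Over the 44 adenosines, the 3 within the first 5 bases had a median ratio of 59.0, the 11 that lie 3′ of A58 one of 56.7, the 8 at A58 one of 12.5 and the 22 between one of 4.19, of which 8 were in Asp tRNAs.

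**Figure D4:**
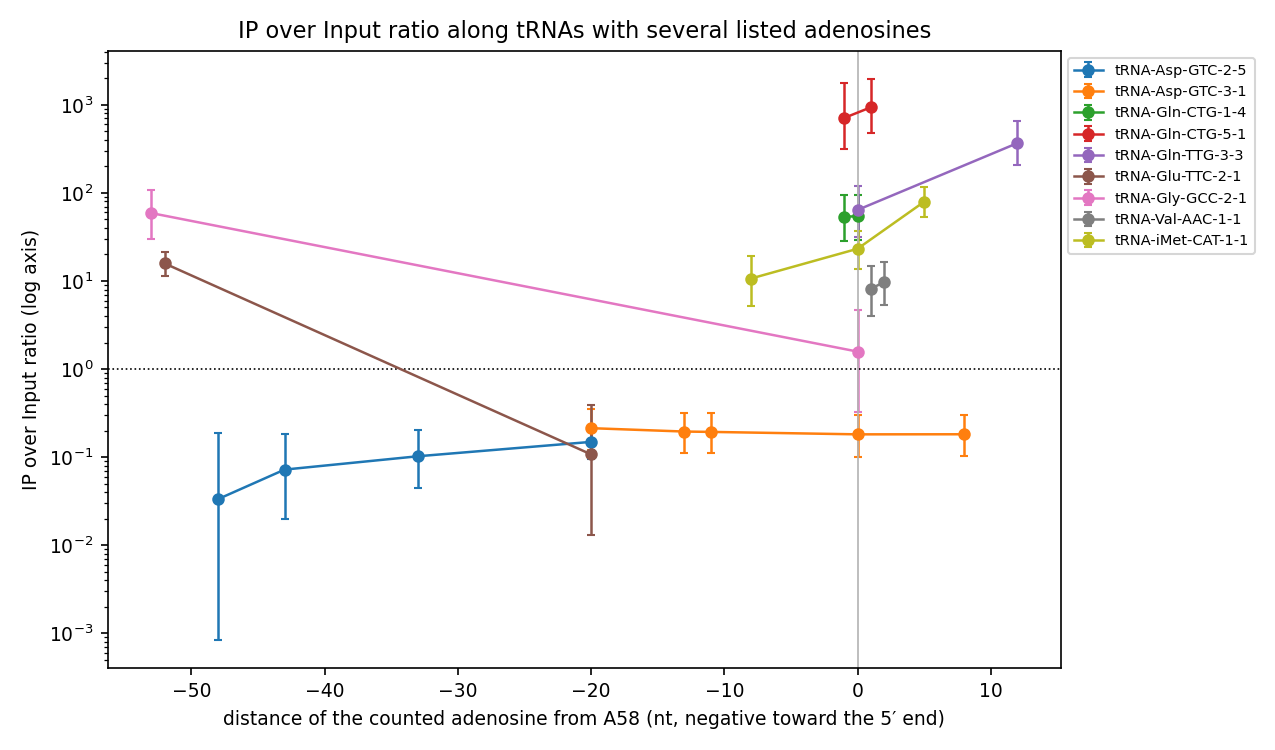
IP over Input ratio (log axis, 4 cultures summed, bars giving 95% counting intervals) at each listed adenosine of the 9 tRNAs with several of them, against the distance from A58 in bases, negative toward the 5′ end. Asp-GTC-3-1 is flat near 0.2, iMet-CAT-1-1 is at 10.7, 23.2 and 79.3 from left to right, and Glu-TTC-2-1 and Gly-GCC-2-1 are above 10 near the 5′ end and at 0.107 and 1.58 at their second adenosine.

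The libraries in which RNA had been treated with a demethylase before IP (dma.IP) held 281 reads over the 29 tRNAs. Gln made up 38.9% of IP reads and 12.1% of dma.IP reads, Asp 14.8% and 35.2%, and Glu-TTC-4-1 0.707% and 21.4%. The direction was not uniform among other tRNAs called higher in IP. Val-CAC-3-1 had 41 IP and 11 dma.IP reads, Arg-ACG-2-1 14 and 12, iMet 11 and 10, and Arg-ACG-1-3 6 and 18. Gln still held a larger share of dma.IP reads than of Input reads (0.298%). Over the 20 tRNAs with dma.IP reads, the log2 ratios to Input correlated between IP and dma.IP (r = 0.897, rho = 0.883). That is a description, since both ratios have the Input share as denominator. The dma.IP libraries entered no test here.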

How the data were processed

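Small RNA under 200 nt was isolated from 2 cultures of each stable line, freed of bound amino acids and split into IP, dma.IP (demethylase before IP) and Input. The authors trimmed the reads with Cutadapt 1.9.3, kept those of 15 nt or more and aligned them with Bowtie2 to hg38 tRNA sequences with CCA added. The deposited counts are reads covering each listed adenosine and misread reads there, obtained with SAMtools per the labels. The deposited fraction columns hold the misread share and were used only to check the columns (528 of 528 equal the ratio of the counts within 1e-06). The deposited score columns hold the authors' own differences and ratios between IP and dma.IP and were not used. Versions of Bowtie2 and SAMtools, and the rule for listing a site, are not given in the sources used here.

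For each of the 29 tRNAs the adenosine with the most Input reads was used, and the reads on these adenosines were the library total. Such totals cover the listed tRNAs only, and full library sizes were not used here. IP and Input were compared with edgeR 4.0.16 (R 4.3.3; glmQLFit and glmQLFTest) across all tRNAs or isotypes, with culture as a block, no scaling factor, no filter and Benjamini-Hochberg adjustment at 0.05. A single fit over the 8 libraries gave the tests within OE-WT, within CTRL and of their difference. Share intervals are exact Clopper-Pearson, and intervals of ratios are exact conditional binomial, both at 95%, from SciPy 1.17.1. The share that a count of 0 is said to allow is instead 3 reads over the total. Simulated counts were used to test the scripts, with 100 runs per setting of the tRNA comparison over 4 cultures. With 6 of 29 tRNAs changed 4-fold, 16-fold or 64-fold, 5%, 43.8% and 69.8% of the changed tRNAs were called. Runs with a false call, that is of an unchanged tRNA, made up 7%, 13% and 54%, and 6% with no tRNA changed. At 64-fold, 3.67% of the unchanged tRNAs were called, so single calls beside large changes can be false. The simulated counts had a fixed dispersion (spread beyond sampling noise) of 0.2 and no minimum of 1 IP read per tRNA. These rates therefore do not cover the effect of listing only tRNAs with a misread IP read. Alternatives were TMM factors, DESeq2 1.42.0, Fisher's exact test on summed reads, no culture block, filters on low reads, other adenosines per tRNA, leaving out tRNA-Asp and leaving out each culture.

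IP libraries held 37 to 93 reads, so 1 read was 1.08% to 2.70% of a library, and Input libraries held 12438 to 26464. Input libraries of the same condition differed by more than sampling noise (chi-square 180 with 28 degrees of freedom in OE-WT and 253 with 27 in CTRL). IP and Input pair by culture through the library names. Replicates were duplicate cultures, so the p-values measure the spread between cultures of 1 line. The members and lists were chosen with earlier results of these data known. Named tRNAs are up to 10 called in each direction, the 8 with the most Input reads, iMet, and the tRNAs the study described. Gln-TTG-1-1, Arg-ACG-1-3, Tyr-GTA-7-1 and Lys-TTT-6-1 lie outside this rule and were named after their values were seen.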

Additional observations from a re-analysis of the deposited data

Results flagged for a closer look

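In the dma.IP libraries, which entered no comparison above, tRNA-Arg-ACG-1-3 had 5 and 13 reads in OE-WT, 18 of 185 or 9.73% (95% Clopper-Pearson interval 5.87% to 14.9%), and 0 of 96 reads in CTRL, where a count of 0 allows a share of up to 3.125%. Its OE-WT interval lay above the CTRL Clopper-Pearson interval, which ends at 3.77%. Its nearest relative, Arg-ACG-2-1, which differs at 1 base, showed a like pattern with 2 and 10 dma.IP reads in OE-WT, 6.49% (3.40% to 11.1%), and 0 in CTRL, with intervals that overlap. All 29 tRNAs were looked at in this way. Reads that do not cover the differing base cannot be told apart between the 2, and the difference was not tested over cultures.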

How the results depend on the processing

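Over the 4 cultures, the main count of 17 tRNAs (14 higher, 3 lower) became 5 of 13 tested (3 higher, 2 lower) when 20 Input reads were asked of every library, 0 of 4 when 5 expected IP reads were asked (0 at an unadjusted p under 0.05), 10 with TMM factors (3 higher, 7 lower), 13 with DESeq2 (3 higher, 10 lower) and 11 of 26 without tRNA-Asp, and ran from 13 to 16 without 1 culture. The 8 isotypes became 4 of 11 without tRNA-Asp and ran from 6 to 8 without 1 culture. Within OE-WT the 9 tRNAs became 2 with 20 Input reads, 0 with 5 expected IP reads, 5 at the adenosine with the most IP reads without CTRL replicate 2, 5 at positions from 50, 3 without tRNA-Asp and 2 (OE-WT replicate 2) to 7 (OE-WT replicate 1) without 1 culture. Within CTRL the 10 tRNAs became 3, 0, 1 and 3 under 20 Input reads, 5 expected IP reads, the adenosine with the most IP reads without CTRL replicate 2, and no tRNA-Asp, 18 without the culture block, and 1 (either CTRL culture) to 13 (OE-WT replicate 1) without 1 culture. The difference between conditions called 0 tRNAs under every alternative run, and 0 tRNAs and 0 isotypes with the replicate number as a block, and 1 isotype (iMet, edgeR adjusted p = 0.0439) only without CTRL replicate 1. Between the conditions, the differences between replicates 1 and 2 correlated at 0.241 across tRNAs in IP and -0.065 in Input, and with 2 cultures each the replicate numbers were not taken as pairs.

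Values that changed sign were, on the edgeR log2 scale, as follows. With DESeq2 and TMM factors they were Ala at -3.00 and -3.04, Gly at -1.91 and -2.46, Leu at -0.044 and -0.37, Lys at -2.41 and -2.59, Val at -0.16 and -0.78, iMet at -1.20 and -1.58, Ala-TGC-4-1 at -2.07 and -0.98, Gly-GCC-2-1 at -4.52 and -3.62, Leu-CAA-1-1 at -0.40 and -0.016, Val-AAC-1-1 at -1.40 and -0.71, Val-CAC-1-7 at -2.94 and -2.23, and the single iMet tRNA at -1.87 and -1.04. Both scalings set the middle of the tRNAs near 0 by construction. For isotypes they were fitted to the 12 isotypes, whose median log2 change was -0.68 with DESeq2 and -1.18 with TMM factors. With the filters, which leave fewer tRNAs in the total, Asp-GTC-1-1 was at 0.52 (20 Input reads), and Asp-GTC-3-1 at 0.23 and Glu-TTC-4-1 at 0.94 (5 expected IP reads). Without tRNA-Asp, Ala was at -1.53, Gly at -0.51, Lys at -0.93, Gly-GCC-2-1 at -2.25 and Val-CAC-1-7 at -0.89. With the adenosine of the most IP reads, Glu was at 0.83 and Glu-TTC-2-1 at 2.42, and Glu-TTC-2-1 was at 1.21 without CTRL replicate 2 as well. As log2 of the ratio of summed shares these were 1.9 for Glu and 3.46 for Glu-TTC-2-1, and with the reads of all adenosines summed 1.37 and 1.67. At positions from 50, Gly was at -0.75 and Gly-GCC-2-1 at -0.79. Causes of these changes, beyond the construction named, were not tested. No value could be had for tRNAs or isotypes whose IP reads all lay in what was left out. With 11 of 29 tRNAs under 3 IP reads, depth limits what can be seen for the rare tRNAs.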
